A study of Rattus norvegicus with 6 samples.

Results

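Among the genes measured in the renal cortex of 6 rats, 87 had levels that differed between rats of the same treatment group by far more than is usual for a gene on these arrays. They were chosen by that spread: the standard deviation (SD) of the log2 level was taken within each group of 3 arrays, the 2 group variances were averaged, and genes whose root mean variance was 1 or more were kept. Of 11804 genes with a detected probe, 89 (0.754%) reached that value, and leaving out 2 genes of the major histocompatibility complex (symbols beginning RT1-) gave the 87. The rule also named 8 fat-cell genes to be dropped, of which 0 reached the threshold. All the rats were male Sprague-Dawley animals of the outbred Crl:CD(SD) stock, bought at 5 weeks of age and kept on a basal diet. The 3 vehicle rats received corn oil for 4 weeks, and the 3 TCEP rats received tris(2-chloroethyl)phosphate, an organophosphate flame retardant, at 400 mg/kg/day for the same time. Each rat gave 1 single-colour Agilent array of total cortical RNA. A level is the log2 processed signal of a gene's brightest probe minus the log2 75th percentile of its array, so a level of 0 equals that percentile, and levels of different genes are not compared, since probes differ in brightness. An array is called dim for a gene where the scanner software did not mark the spot as well above background.

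The spread itself is what the rule used, so it is described here and not tested. The SD of the 87 genes ran from 1.00 to 6.20 with a median of 1.27, and the median over all tested genes was 0.131. The distance between a gene's highest and lowest array had a median of 3.27 log2 units against 0.37 over all tested genes. A strong spread in both groups was not a property of every member: 28 of the 87 genes had an SD of 1 or more among the vehicle rats and also among the TCEP rats, 31 had it among the vehicle rats alone and 28 among the TCEP rats alone. Gal (galanin), Fam111a and Ephx2 varied strongly in each group. Ubd had an SD of 0.39 among the vehicle rats and 2.84 among the TCEP rats, and C10h17orf107 had 1.5 and 0.07. At the threshold, Liph (SD 1.02), Apoh (1.01) and Lrrn2 (1.00) lay just inside, and Gcm1, Prima1 and Ttc21b lay just outside, each with an SD of 0.99.

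**Figure D1:**
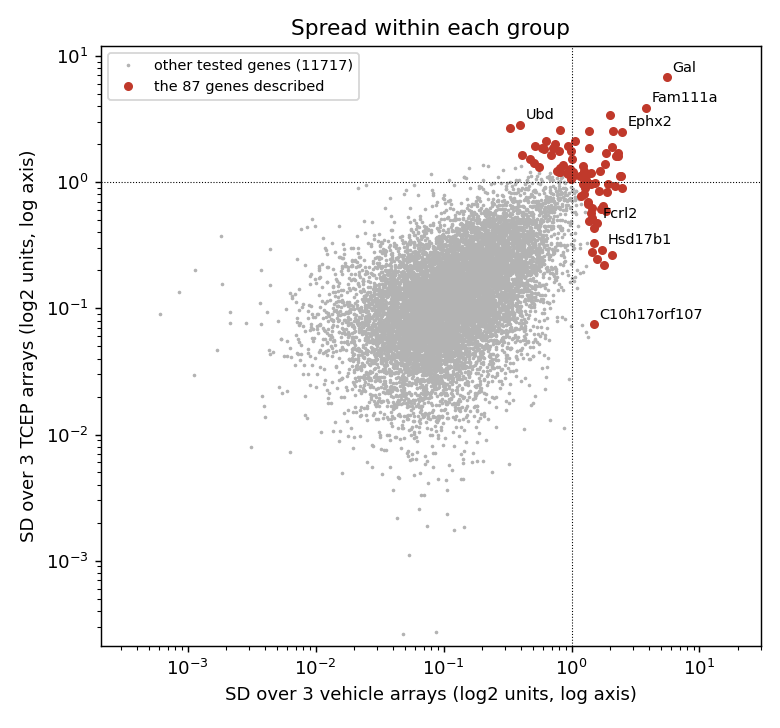
SD of the log2 level over the 3 TCEP arrays against the SD over the 3 vehicle arrays for all tested genes, both on log axes, with dotted lines at an SD of 1. Of the 87 genes, 28 lie beyond both lines, 31 beyond the vertical line alone and 28 beyond the horizontal line alone, with Gal furthest out and C10h17orf107 far below the horizontal line.

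The genes have little in common by known function. They include neuropeptides (galanin, urocortin), lens crystallins, proteins that the liver secretes into plasma (retinol-binding protein, transferrin, kininogens, vitamin D-binding protein), transporters, detoxifying and steroid-handling enzymes, leukocyte proteins and olfactory receptors. Genes under hormonal, immune or allele-specific control are known to differ between animals of an outbred stock, and which of these bears on a given member was not tested. Cish is a textbook example of hormonal control: it encodes an inhibitor of cytokine signalling that is switched on by growth hormone and prolactin through STAT5, a transcription factor that binds DNA of the form TTCNNNGAA. All 87 genes are annotated as protein-coding and they lie on 18 chromosomes.

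The promoters of a few genes are shown because their genes moved together over the arrays or, for Cish, because of the motif named above. They were taken from a RefSeq promoter table of assembly GRCr8, which held 64 of the 87 genes, and each is the 250 bases before the transcription start, 5′ to 3′ on the gene's own strand. In the promoter of Cish (chr8:116850719-116850968, plus strand) the capitals mark the matches to TTCNNNGAA, a motif that reads the same on both strands. It had 4 of them, and 7.67% of the 33469 promoters in the table held at least 1 and 0.00598% held 4 or more. Among the members the motif was found in 7 of 64 promoters.
Cish: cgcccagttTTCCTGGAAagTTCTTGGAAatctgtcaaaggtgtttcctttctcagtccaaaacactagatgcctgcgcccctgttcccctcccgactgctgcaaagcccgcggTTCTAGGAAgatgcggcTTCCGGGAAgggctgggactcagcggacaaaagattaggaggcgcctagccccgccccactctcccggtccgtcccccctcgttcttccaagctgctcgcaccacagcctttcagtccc

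Cryga and Crygd, gamma-crystallin genes that lie 3 genes apart on chromosome 9, are shown together because both were high on the same arrays. In their promoters (chr9:73978383-73978632 and chr9:73937410-73937659, both on the minus strand) the capitals mark the longest run of identical bases, 13 bases that start at positions -77 and -76 relative to the start site. Both also hold TATATATA, a run that reads the same on both strands and occurs in 0.863% of all promoters in the table and in 4 of the 64 members' promoters (Cryga, Crygd, Prl3d4 and Ubd). The matches are a description of the sequence and carry no statement on which factor acts there.
Cryga: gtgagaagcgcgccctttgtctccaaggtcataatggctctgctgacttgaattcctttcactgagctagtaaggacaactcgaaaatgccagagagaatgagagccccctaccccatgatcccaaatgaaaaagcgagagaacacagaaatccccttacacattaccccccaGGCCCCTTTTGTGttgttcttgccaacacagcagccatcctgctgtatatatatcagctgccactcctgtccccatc
Crygd: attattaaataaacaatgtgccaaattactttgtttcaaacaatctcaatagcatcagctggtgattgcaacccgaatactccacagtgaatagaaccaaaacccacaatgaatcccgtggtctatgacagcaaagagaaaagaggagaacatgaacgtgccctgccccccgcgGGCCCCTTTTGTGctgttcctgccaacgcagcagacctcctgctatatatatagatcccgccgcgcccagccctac

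Kng1 and Kng2, which encode kininogens (the plasma precursors of the kinin peptides), lie 3 genes apart on chromosome 11 and were low on the same array. Their promoters (chr11:91340149-91340398 on the minus strand and chr11:91418220-91418469 on the plus strand) share a run of at least 87 identical bases, in capitals, at different distances from the start site. Within the bases taken it begins at position -250 in Kng1 and -95 in Kng2. Position -250 is the edge of the stretch taken, so the run may reach further upstream.
Kng1: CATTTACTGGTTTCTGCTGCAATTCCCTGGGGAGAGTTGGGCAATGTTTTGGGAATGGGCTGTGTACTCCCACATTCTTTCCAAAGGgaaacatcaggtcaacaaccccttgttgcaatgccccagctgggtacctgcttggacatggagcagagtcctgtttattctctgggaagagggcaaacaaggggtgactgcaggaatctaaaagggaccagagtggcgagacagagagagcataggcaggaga
Kng2: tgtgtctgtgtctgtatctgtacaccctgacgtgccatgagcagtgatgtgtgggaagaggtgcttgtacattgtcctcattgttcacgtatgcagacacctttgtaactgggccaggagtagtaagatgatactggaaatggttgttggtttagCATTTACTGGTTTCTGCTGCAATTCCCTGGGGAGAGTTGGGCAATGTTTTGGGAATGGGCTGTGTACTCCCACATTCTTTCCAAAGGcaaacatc

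The arrays themselves were alike in detection and brightness. Between 67.2% and 69.3% of 61657 non-control probes were well above background per array, and the 75th percentile of the signal lay between 966 and 1078 intensity units, highest on TCEP array 1. The 5 proximal tubule markers Lrp2, Slc34a1, Slc22a6, Slc5a2 and Aqp1, which define the main cell type of the cortex, were detected on all 6 arrays. Their sum, on a linear scale relative to the 75th percentile, was 843 on TCEP 1 and 876 on vehicle 2. On the other arrays it was between 943 and 1040. Slc34a1, Slc22a6 and Slc5a2 were lowest on these 2 arrays, Lrp2 was not, and Aqp1 was highest on TCEP 1 (6.86). The part of this difference in the spread of the 87 genes was not tested. The vehicle arrays were on 1 slide and the TCEP arrays on another, each scanned on its own, so slide and treatment cannot be told apart in a comparison of the groups, while differences among the 3 arrays of a group are within 1 slide. Over all tested genes the arrays did not separate by treatment on the first principal component (38.6% of the variance): vehicle 2 and TCEP 1 had scores of 11.9 and 28.9, and vehicle 3 and vehicle 1 had -21.9 and -11.8. With the 87 genes left out, the scores of vehicle 2 and TCEP 1 were 6 and 24.5.

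To describe which arrays were high for a gene, the 6 levels were sorted and divided at the largest gap between neighbours. The gap was called a clear step where it was at least 1 log2 unit and larger than the rest of the gene's range. A clear step was seen in 43 of the 87 genes (49.4%), against 142 of all 11804 tested genes (1.2%), and in 10 genes the step was 3 log2 units or more. Since the spread chose the genes, the first share is a description. Of the 43 clear steps, 12 had 1 array alone high, 15 had 1 array alone low, and 16 divided the arrays into 2, 3 or 4 high ones and the rest. The 87 genes showed 31 different sets of high arrays, 17 of them held by a single gene.

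**Figure D2:**
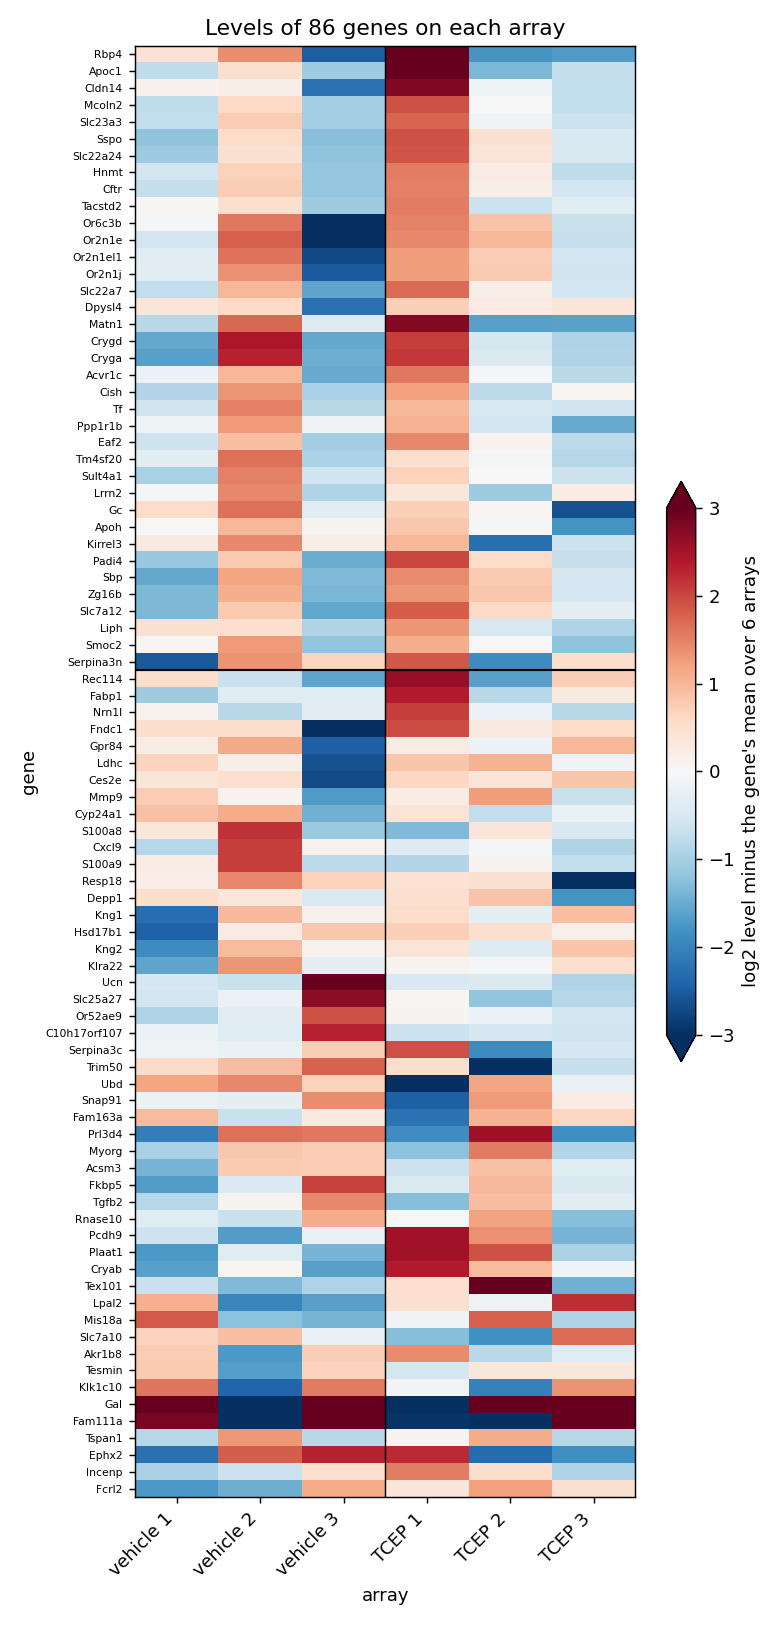
Level of 86 of the 87 genes (vertical axis) on each array (horizontal axis), as log2 units above (red) or below (blue) the gene's mean over the 6 arrays, with colours saturating at 3 units. The 37 genes above the horizontal line are those with their 2 highest levels on vehicle 2 and TCEP 1; below it, genes that share a set of high arrays stand together.

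The largest step belonged to Gal, the gene of the neuropeptide galanin. Its levels were 4.67, -4.99 and 4.54 on vehicle arrays 1, 2 and 3 and -8.17, 3.55 and 3.68 on TCEP arrays 1, 2 and 3. On 4 of the arrays, 2 from each group, it was bright, on vehicle 2 it was far lower, and on TCEP 1 it was dim, so the value there lies at background. The lowest of the 4 bright arrays stood 371-fold above vehicle 2, and the SD was 5.54 among vehicle and 6.80 among TCEP rats. A weaker second probe of Gal, which missed the detection rule, gave 3.88, -6.88 and 3.73 in the vehicle rats and -8.04, 2.64 and 2.85 in the TCEP rats and divided the arrays in the same way. The neighbour of Gal on chromosome 1 is Tesmin, a gene of a testis-expressed metal-binding protein. Tesmin was lowest on vehicle 2 (-6.85, dim) and next lowest on TCEP 1 (-5.73), and its other arrays ranged from -4.87 to -4.41. Gal and Tesmin thus had the same 2 lowest arrays, in the opposite order, although their largest gaps fell at different places.

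Fam111a, which encodes a protease that acts at DNA replication forks and restricts viruses, had the next largest step. Its levels were 0.67, -5.86 and 0.81 on vehicle arrays 1, 2 and 3 and -5.11, -5.17 and 1.61 on TCEP arrays 1, 2 and 3. The 3 high arrays lay within 1 log2 unit of each other, and the lowest of them was 54.8-fold above the highest of the 3 low ones, of which vehicle 2 was dim. A second probe of Fam111a that met the detection rule had an SD of 3.10 and read -0.58, -5.83 and -0.35 in the vehicle rats and -4.61, -5.04 and 0.52 in the TCEP rats, with the same 3 arrays high.

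Ephx2, the gene of soluble epoxide hydrolase (an enzyme that converts epoxides of arachidonic acid to diols), also split the rats into 3 and 3. Its levels were -2.20, 1.86 and 2.35 on vehicle arrays 1, 2 and 3 and 2.28, -2.27 and -1.81 on TCEP arrays 1, 2 and 3. All 6 spots were well above background, the 3 high arrays lay between 1.86 and 2.35 and the 3 low ones between -2.27 and -1.81, and the step between them was 3.66 log2 units (12.6-fold). The high arrays were 2 vehicle rats and 1 TCEP rat. Ephx2 was the only tested gene with a clear step that had exactly these 3 arrays high, as were Gal and Fam111a for their own sets.

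Prl3d4, of the placental prolactin family, stood at -4.88, -1.17 and -1.24 on vehicle arrays 1, 2 and 3 and -4.67, -0.27 and -4.66 on TCEP arrays 1, 2 and 3. It was high on vehicle 2, vehicle 3 and TCEP 2, with a step of 3.42. The same 3 arrays were high for Myorg, which encodes a glycosidase of the endoplasmic reticulum, and for Acsm3, a medium-chain acyl-CoA synthetase of mitochondria. Myorg measured -2.72, -0.91 and -1.0 in the vehicle rats and -2.97, -0.18 and -2.61 in the TCEP rats, and Acsm3 measured 2.28, 4.45 and 4.44 in the vehicle rats and 3.02, 4.54 and 3.30 in the TCEP rats. The 3 genes lie on different chromosomes (17, 5 and 1) and are 3 of the 4 tested genes with a clear step and this set of high arrays. A second probe of Myorg did not follow the first: its SD was 0.187. A weaker second probe of Prl3d4, which missed the detection rule, did not show the step either. It read between -8.12 and -7.35 on all arrays, with an SD of 0.317.

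Rbp4 encodes the plasma carrier of retinol. Its levels were 2.30, 3.26 and -0.61 on vehicle arrays 1, 2 and 3 and 6.0, 0.11 and 0.18 on TCEP arrays 1, 2 and 3. TCEP 1 was highest and vehicle 3 lowest, and the remaining arrays filled the range between them rather than forming a step. A further probe had an SD of 2.80 and also placed TCEP 1 alone above its largest gap. Ubd, the gene of the ubiquitin-like protein FAT10 that interferon and tumour necrosis factor induce, had levels of 2.07, 2.34 and 1.57 on vehicle arrays 1, 2 and 3 and -3.39, 2.08 and 0.68 on TCEP arrays 1, 2 and 3. Here 1 array, TCEP 1, was low by 4.07 log2 units, and the other 5 lay between 0.68 and 2.34.

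Klk1c10, a member of the rat's large tissue kallikrein family of serine proteases, stood at 0.04, -3.95 and 0.01 on vehicle arrays 1, 2 and 3 and -1.65, -3.60 and -0.22 on TCEP arrays 1, 2 and 3. Vehicle 2 and TCEP 2 were low and TCEP 1 lay between them and the other 3 arrays. Matn1, which encodes the cartilage matrix protein matrilin, measured -2.93, -0.39 and -2.50 in the vehicle rats and 0.65, -3.73 and -3.71 in the TCEP rats, so that vehicle 2 and TCEP 1 were high.

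**Figure D3:**
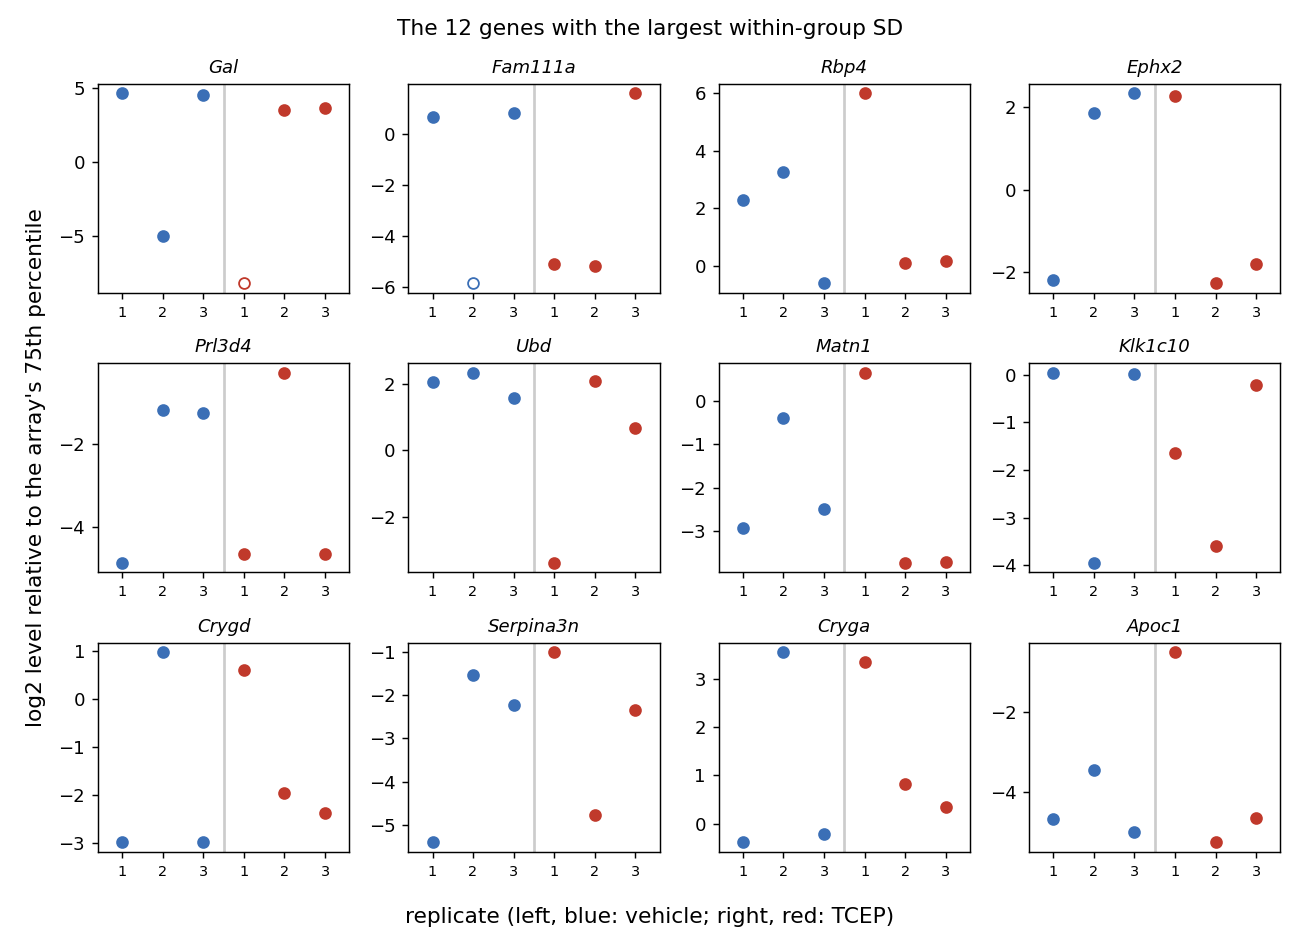
Log2 levels relative to the array's 75th percentile for the 12 genes with the largest SD, each panel with its own vertical scale, vehicle replicates in blue at left and TCEP replicates in red at right. Open circles mark spots that were not well above background (Gal on TCEP 1, Fam111a on vehicle 2), and in all 12 panels the range of one group overlaps that of the other.

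Several genes departed on 1 array alone. Tex101, of a surface glycoprotein of germ cells, was high on TCEP 2 only: it read -0.20 there and between -5.51 and -3.57 on the others. Ucn, the gene of the corticotropin-releasing-factor-like peptide urocortin, was at -2.07 on vehicle 3 and between -5.94 and -5.47 elsewhere. Vehicle 3 was also alone high for Slc25a27, a mitochondrial carrier, for the olfactory receptor Or52ae9 and for C10h17orf107, an uncharacterised open reading frame. Among further probes that missed the detection rule, those of Tex101 and Or52ae9 had the same single high array. Those of Ucn (SD 0.313) and Slc25a27 (SD 0.342 and 0.142) did not show the step. The low array was TCEP 3 for 4 genes, all with a clear step: Resp18, Gc, Depp1 and Apoh. Resp18, a protein of endocrine secretory granules, was at 0.45 there and between 3.87 and 5.13 on the other 5. Gc, the vitamin D-binding protein of plasma, read 1.40, 2.51 and 0.52 in the vehicle rats and 1.57, 0.91 and -1.77 in the TCEP rats. Depp1, a target of FOXO transcription factors, and Apoh, the plasma protein beta-2-glycoprotein, read -0.43 and -2.57 on TCEP 3 and at least 0.92 and -0.85 on every other array. The single low array of Hsd17b1, Kng1, Kng2 and Klra22 was vehicle 1.

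Hsd17b1 encodes the hydroxysteroid dehydrogenase that makes oestradiol from oestrone. Its level was -0.11 on vehicle 1 and between 2.45 and 3.11 on the other 5 arrays, a step of 2.57. Kng1 measured -3.76, -0.50 and -1.34 in the vehicle rats and -0.91, -1.74 and -0.56 in the TCEP rats, and Kng2 measured -2.86, -0.03 and -0.87 in the vehicle rats and -0.58, -1.36 and -0.14 in the TCEP rats. Their order over the 6 arrays was the same, lowest on vehicle 1 and highest on vehicle 2, and a second probe of each (SD 1.03 for Kng1 and 1.00 for Kng2) had vehicle 1 as the single low array as well. The kininogens are close relatives in sequence, so a probe of one may also bind transcripts of the other.

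In all, 6 pairs of members, with 12 genes, lay within 5 genes of each other on a chromosome, and 4 pairs had the same high arrays: Cryga with Crygd, Kng1 with Kng2, S100a8 with S100a9, and Sbp with Zg16b. Cryga read -0.39, 3.56 and -0.21 in the vehicle rats and 3.36, 0.81 and 0.34 in the TCEP rats, and Crygd read -2.99, 0.98 and -2.98 in the vehicle rats and 0.62, -1.97 and -2.38 in the TCEP rats. Vehicle 2 and TCEP 1 stood above the other 4 arrays in both genes, by steps of 2.54 and 2.59. A second detected probe of Crygd, however, had an SD of 0.199 and did not show the step. The gamma-crystallins are near-identical in stretches, so which family member each probe reports is uncertain.

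Sbp, a spermine-binding protein known from the prostate, and Zg16b, of a secreted lectin, lie 2 genes apart on chromosome 10. Sbp measured -3.40, -0.67 and -3.18 in the vehicle rats and -0.44, -1.08 and -2.35 in the TCEP rats, and Zg16b measured -2.22, 0.23 and -2.23 in the vehicle rats and 0.46, -0.05 and -1.40 in the TCEP rats. Vehicle 2, TCEP 1 and TCEP 2 were the 3 high arrays in both. Zg16b had a further probe with the same pattern and an SD of 1.31, and a further probe of Sbp had an SD of 0.301. The remaining pairs did not share their high arrays by the largest gap, though Gal and Tesmin, given above, shared their 2 lowest arrays. Serpina3n, which encodes an acute-phase inhibitor of serine proteases, read -5.39, -1.53 and -2.23 in the vehicle rats and -1.01, -4.76 and -2.34 in the TCEP rats, with vehicle 1 and TCEP 2 low. Its neighbour Serpina3c was lowest on TCEP 2 (-7.14, dim) and highest on TCEP 1 (-3.32), with the other arrays between -5.75 (TCEP 3, dim) and -4.50, and the Serpina3 genes are again a family of close copies.

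A frequent arrangement was a high level on vehicle 2 and TCEP 1, 1 rat from each group. These were the 2 highest arrays in 37 of the 87 genes (42.5%), against 7.9% of all tested genes. They were the 2 lowest arrays in 4 members (Gal, Snap91, Fam163a and Tesmin; 4.6%), against 10.3% of all tested genes. Within the 37 genes the highest array was TCEP 1 in 21 and vehicle 2 in 16, TCEP 2 came next after them in 22, and vehicle 3 was lowest in 23. After subtracting each gene's mean, the median levels were -0.59, 1.19 and -1.16 on the vehicle arrays and 1.49, -0.01 and -0.67 on the TCEP arrays. Of the 37 genes, 31 were well above background on all 6 arrays. In 9 of them both arrays stood at least 1 log2 unit above the other 4. This set was noticed in these data, and the shares describe them without a test.

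**Figure D4:**
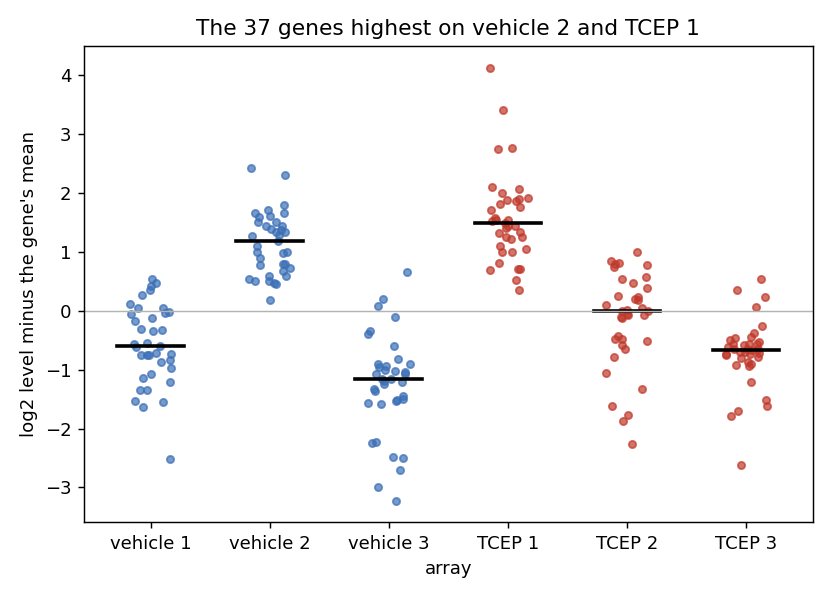
Levels of the 37 genes whose 2 highest arrays were vehicle 2 and TCEP 1, as log2 units from each gene's mean over the 6 arrays, 1 point per gene and array, with the median as a black bar. The medians are 1.19 on vehicle 2 and 1.49 on TCEP 1 and at or below -0.01 on the other 4 arrays, where vehicle 3 is lowest.

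Among the 37 genes were those of the plasma proteins Rbp4, Tf, Gc, Apoh and Apoc1, given as examples and not as a theme of the set. Tf, the iron carrier transferrin, measured 2.96, 5.06 and 2.73 in the vehicle rats and 4.55, 3.07 and 2.94 in the TCEP rats, with vehicle 2 and TCEP 1 above the other 4 by a step of 1.48, and its further probe (SD 1.2) had the same high arrays. Apoc1, an apolipoprotein of circulating lipoproteins, was at -0.51 on TCEP 1, -3.45 on vehicle 2 and between -5.26 and -4.64 on the rest. For Apoc1 the step set TCEP 1 apart from all others. TCEP 1 was likewise alone high by a clear step in Cldn14, a tight-junction claudin that is also among the 37. A further detected probe of Cldn14 (SD 0.558) had TCEP 1 alone high too, but by 0.617, which is not a clear step. Outside the 37 genes, TCEP 1 was alone high by a clear step in Fabp1, the liver fatty-acid-binding protein, and Nrn1l.

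Of the 6 members with symbols beginning Slc (solute carriers), 4 had vehicle 2 and TCEP 1 highest, against 37 of all 87 members. Slc22a7, the organic anion transporter OAT2, measured -1.27, 0.48 and -2.11 in the vehicle rats and 1.19, -0.32 and -1.09 in the TCEP rats. Slc22a24, of the same organic anion family, measured 1.29, 2.81 and 1.15 in the vehicle rats and 4.24, 2.75 and 1.91 in the TCEP rats, and its further probe had an SD of 1.09 with the same high array. Slc7a12, an amino acid transporter of the kidney, measured -0.14, 2.00 and -0.35 in the vehicle rats and 3.03, 1.78 and 0.94 in the TCEP rats. Slc23a3, a relative of the vitamin C transporters, measured -0.95, 0.56 and -1.23 in the vehicle rats and 1.55, -0.32 and -0.85 in the TCEP rats. In each of the 4, TCEP 1 was the highest array and vehicle 2 came next, and vehicle 3 was the lowest. Cftr, the chloride channel mutated in cystic fibrosis, ranged from -4.32 on vehicle 3 to -1.64 on TCEP 1 with vehicle 2 next to highest.

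Further examples of the set were Cish, Acvr1c and Smoc2. Cish, whose promoter is printed above with its 4 matches, measured -0.95, 1.25 and -1.04 in the vehicle rats and 1.14, -0.86 and -0.01 in the TCEP rats. Vehicle 2 and TCEP 1 stood 1.15 log2 units above the next array, TCEP 3, and its further probe (SD 0.999) had the same high arrays. TTCNNNGAA occurred in 6 of the 27 promoters of the set that the table holds, against 7 of 64 over all members and 7.67% of all promoters. The 6 are among those 7 and include the closely related Or2n1e and Or2n1el1. As the set was noticed in these data, the shares are a description and were not tested. Acvr1c, the activin receptor-like kinase ALK7, measured -0.41, 0.75 and -1.75 in the vehicle rats and 1.34, -0.31 and -1.04 in the TCEP rats, and Smoc2, a secreted matrix-associated protein, measured 0.70, 1.93 and -0.53 in the vehicle rats and 1.75, 0.65 and -0.56 in the TCEP rats. Hnmt, the histamine-inactivating methyltransferase, and Sspo, SCO-spondin, graded from 1.56 to 4.26 and from 0.08 to 3.22, with TCEP 1 highest in both.

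Some markers of neighbouring tissue were also highest on these 2 arrays. The summed level of the adrenal cortex list, on a linear scale relative to the 75th percentile, was 2.03 on vehicle 2 and 2.53 on TCEP 1 and between 0.955 and 1.34 on the other arrays. Among its genes Hsd3b1, a steroidogenic dehydrogenase, varied most (log2 levels -1.25, 0.47 and -0.78 in the vehicle rats and 0.89, -0.25 and -0.73 in the TCEP rats), and Cyp21a1, another enzyme of steroid synthesis, was -1.36 on vehicle 2, -0.94 on TCEP 1 and between -1.84 and -1.62 elsewhere. Of the 8 listed genes 5 were tested, and vehicle 2 and TCEP 1 were the 2 highest arrays in these 2 of the 5. Cyp17a1 was lowest on TCEP 1 (-3.37), Cyp11a1 and Cyp11b2 were each above background on 5 arrays, and Cyp11b1 and Star, which define the gland, were below background on all 6. The adipocyte list includes Pck1, a gluconeogenic enzyme that the proximal tubule also makes and that forms nearly all of the list's sum. Without Pck1, a sum added after the values were seen, the 7 other tested genes summed to 4.93 on vehicle 2 and 5.89 on TCEP 1. On the other arrays the sum was between 2.96 and 4.11. These were the 2 highest arrays in 2 of the 8 tested genes: Cidec, a lipid droplet protein, and Adipoq, adiponectin. Lpl and Ucp1 were highest on vehicle 1, Cidea was lower on vehicle 2 (-1.03) than on vehicle 1 (-0.55), and Fabp4 was higher on TCEP 2 (-2.70) than on vehicle 2 (-3.82). Lep, leptin, was below background on all arrays. The part of adrenal or fat tissue in the pattern was not tested.

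Of the members known from leukocytes, S100a8, S100a9 and Cxcl9 were highest on vehicle 2 alone, while Gpr84, Padi4, Mmp9, Klra22 and Fcrl2 had other sets of high arrays. S100a8 and S100a9 encode the subunits of calprotectin, an abundant protein of neutrophils, and are next to each other on chromosome 2. S100a8 read -1.97, -0.14 and -3.42 in the vehicle rats and -3.62, -1.92 and -2.77 in the TCEP rats, and S100a9 read -1.09, 0.78 and -2.08 in the vehicle rats and -2.17, -1.21 and -2.05 in the TCEP rats. Vehicle 2 exceeded the next array by 1.78 and 1.87 log2 units. Cxcl9, a chemokine induced by interferon gamma that attracts T cells, was at -1.53 on vehicle 2 and between -4.51 and -3.50 elsewhere. In whole tissue, fewer cells of a type and less RNA per cell cannot be told apart.

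The summed neutrophil list (11 genes, 10 with a named probe, 6 tested) was 3.88 on vehicle 2 and between 1.39 and 2.11 on the other arrays. The list contains both calprotectin genes, which were chosen by their spread and were themselves highest on vehicle 2. The sum is therefore not a reading apart from them, and a sum without them was not taken. Among its other detected genes Camp was -3.0 on vehicle 2 and between -3.59 and -3.23 elsewhere, Csf3r was -4.04 and between -4.77 and -4.43, Np4 was -0.19 and between -0.28 and -0.08, and Lcn2 was lower on vehicle 2 (-2.95) than on the other vehicle arrays (-1.88 and -1.91). The neutrophil granule genes Elane, Ngp and Mmp8 were below background on all arrays. The T and NK cell sum was 3.77 on vehicle 2 against 2.29 to 2.72, and the lymph node sum (Ccl21, Ccl19, Glycam1 and Cr2, the last below background) was 5.6 against 2.7 to 4.39. The erythroid sum (885, against 612 to 815) and the B and plasma cell sum (39.2, against 26.9 to 34.1) were highest there too. In the TCEP comparison 0 of the 6 tested neutrophil genes passed the adjusted threshold of limma and 0 had an unadjusted p under 0.05 (all tested genes: 0 and 8.33%), with a median difference of -0.25. The part of leukocyte content in the spread of S100a8, S100a9 and Cxcl9 was not tested.

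Olfactory receptors made up 5 members, and 4 of them (Or6c3b, Or2n1e, Or2n1el1 and Or2n1j) shared an order in which vehicle 2 and TCEP 1 were highest and vehicle 3 lowest. Or6c3b read -4.84, -3.22 and -8.03 in the vehicle rats and -3.31, -3.95 and -5.47 in the TCEP rats, and Or2n1e read -4.50, -2.16 and -6.94 in the vehicle rats and -2.51, -2.96 and -4.65 in the TCEP rats. Or2n1el1, the only one of the 4 above background on every array, read -0.42, 1.53 and -2.80 in the vehicle rats and 1.17, 0.66 and -0.65 in the TCEP rats. The 3 Or2n1 genes lie on chromosome 20 and are closely related in sequence, so which copy each probe reports is uncertain. Or6c3b, Or2n1e and Or2n1j were dim on vehicle 3, so their lowest value is at background.

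Other members with a known part in the kidney or in cell division had patterns of their own. Cyp24a1, the enzyme that degrades active vitamin D in the proximal tubule, read 1.77, 1.99 and -0.56 in the vehicle rats and 1.29, 0.15 and 0.68 in the TCEP rats. Vehicle 3 was lowest and the other arrays graded upwards without a clear step, and a further probe (SD 1.01) also had vehicle 3 lowest and vehicle 2 highest, although its largest gap fell between other arrays. Akr1b8, an aldo-keto reductase that reduces aldehydes, read 2.18, -0.31 and 2.16 in the vehicle rats and 2.82, 0.60 and 1.05 in the TCEP rats, with vehicle 2 lowest and TCEP 1 highest. Mis18a, needed to load the centromeric histone CENP-A, read -1.08, -4.16 and -4.32 in the vehicle rats and -3.02, -1.14 and -3.83 in the TCEP rats: vehicle 1 and TCEP 2 were high by a step of 1.88. Incenp, a subunit of the chromosomal passenger complex in mitosis, ranged from -0.94 on vehicle 1 to 1.57 on TCEP 1, with vehicle 3, TCEP 1 and TCEP 2 high. The growth factor Tgfb2 read -3.61, -2.66 and -1.29 in the vehicle rats and -4.03, -1.81 and -3.06 in the TCEP rats, highest on vehicle 3 and TCEP 2, the same arrays that were high for Fkbp5.

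Dimness bore on part of the list. On all 6 arrays 63 of the 87 genes (72.4%) were well above background, against 97.5% of all tested genes, 21 were so on 5 arrays and 3 on 4 arrays. Vehicle 3 was the dim array most often, for 10 members, and it also had the most dim spots over all tested genes (118, against 35 to 82 on the other arrays). Vehicle 3 was the single low array in 12 members, 6 of them with a clear step: Fndc1, Ces2e, Or6c3b, Ldhc, Dpysl4 and Gpr84. Fndc1, a fibronectin-domain protein, read -7.87 (dim) on vehicle 3 and between -3.81 and -2.12 elsewhere, and Ces2e, a carboxylesterase, read -6.60 (dim) against -3.54 to -3.09. With another background correction (normexp, which pulls faint signals together), 43 of the 87 genes kept an SD of 1 or more: 40 of the 63 detected on every array and 3 of the 24 with a dim array (Gal, Fam111a and Cldn14). The 8 genes with the largest SD, 2 or more, were among the 43.

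Further probes offered a reading that the rule had not used, though they share the RNA and the array. A further detected probe existed for 27 of the 87 genes, 32 probes in all. Their SD had a median of 1.13 and a range of 0.187 to 3.10, and 22 of the 32 had an SD of 1 or more. For 21 genes a further probe had the same high arrays as the first, among them Fam111a, Rbp4, Plaat1, Fcrl2, Kng1, Kng2, Tf, Cish and Zg16b. Fkbp5, a co-chaperone of the glucocorticoid receptor, read 0.20, 1.46 and 3.91 in the vehicle rats and 1.44, 2.85 and 1.39 in the TCEP rats, and one of its 2 further probes had the same high arrays with an SD of 1.49. A further probe had an SD under 0.5 in 6 genes: Crygd, Myorg, Sbp, Pcdh9, Tgfb2 and Sspo. For Tgfb2 another further probe followed the first (SD 1.21), whereas for Crygd, Myorg, Sbp and Pcdh9 no detected further probe did.

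**Figure D5:**
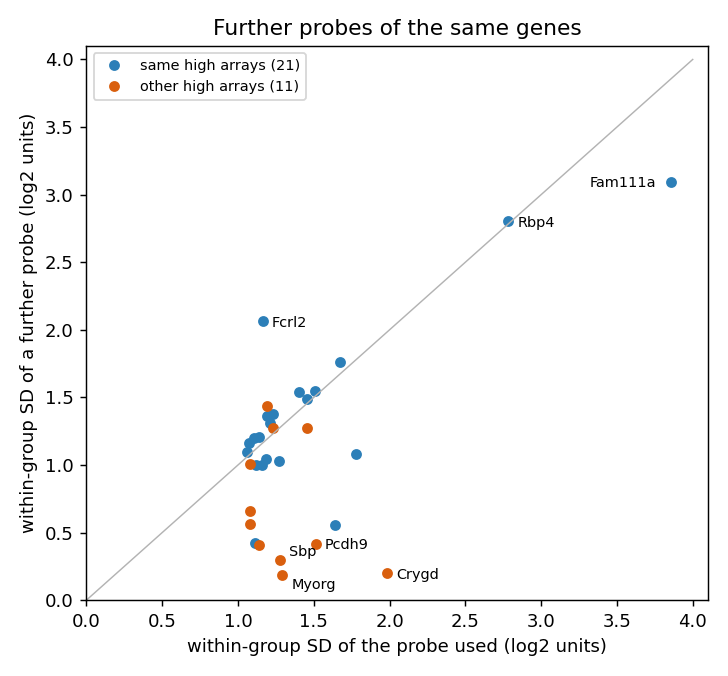
Within-group SD of each of 32 further detected probes against the SD of the probe used for the same gene, in log2 units, with the line of equality. Blue points (21 probes) had the same high arrays as the probe used and orange points (11) did not; Fam111a and Rbp4 are far out on both axes, and Crygd, Myorg, Sbp and Pcdh9 lie near the bottom.

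The study compared TCEP with vehicle, a difference of group means that the rule did not use. The within-group spread does enter the error of that difference, so large standard errors are built into this list. With limma and Benjamini-Hochberg adjustment over all genes, 0 of the 87 genes passed an adjusted p of 0.05 (all tested genes: 0 of 11804, percentage 0), and their adjusted p ran from 0.561 to 0.995. At an unadjusted p under 0.05, 2 members (2.3%) were counted against 983 of all tested genes (8.33%). The mean was higher in the TCEP rats for 51 members and lower for 36. The median difference, TCEP minus vehicle, was 0.348 over the members and 0.00845 over all tested genes.

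The members with the smallest unadjusted p were Cryab, Plaat1, Trim50, Slc7a12 and Fcrl2. Cryab, a small heat shock protein abundant in lens and muscle, read 3.75, 5.44 and 3.76 in the vehicle rats and 7.77, 6.34 and 5.26 in the TCEP rats. The TCEP arrays were mostly higher, but TCEP 3 lay below vehicle 2, and the difference of 2.14 (SE 0.76, 95% confidence interval 0.29 to 3.99, n = 3 per group) had an adjusted p of 0.561 by limma. Plaat1, a phospholipase and acyltransferase, read -5.27, -3.90 and -4.92 in the vehicle rats and -1.02, -1.61 and -4.48 in the TCEP rats. TCEP 1 and TCEP 2 were high and TCEP 3 lay among the vehicle arrays, and the difference of 2.33 (SE 0.94) had a limma adjusted p of 0.598.

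Trim50, a ubiquitin ligase, read -4.19, -3.85 and -3.0 in the vehicle rats and -4.25, -7.86 and -5.46 in the TCEP rats, dim on TCEP 2, and the difference was -2.18 (SE 0.92, limma adjusted p 0.608). Slc7a12, given above, differed by 1.41 (SE 0.79) and Fcrl2, a receptor of the Fc receptor-like family, by 1.38 (SE 0.78), each with a limma adjusted p of 0.690. Fcrl2 read -5.50, -5.23 and -2.64 in the vehicle rats and -3.40, -2.53 and -3.29 in the TCEP rats, so vehicle 3 lay with the TCEP arrays. With normexp background correction the differences were -0.83 for Trim50, 1.18 for Plaat1, 0.58 for Fcrl2, 2.16 for Cryab and 1.33 for Slc7a12. The 2 groups did not overlap in 2 members (2.3%), Trim50 and C10h17orf107, against 15.6% of all tested genes. C10h17orf107 read -0.82, -1.0 and 1.68 in the vehicle rats and -1.29, -1.14 and -1.24 in the TCEP rats: every TCEP array was below every vehicle array, but the lowest vehicle array was only a little above the TCEP arrays and vehicle 3 stood far above both. For Gal, the most variable gene, the interval of the difference ran from -11.93 to 8.48.

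Leaving out single rats raised the count of members whose groups did not overlap, and fewer arrays also overlap less often over all tested genes. Out of 87 members it was 6 without vehicle 1 (all tested genes: 23.2%), 23 without vehicle 2 (28%) and 5 without vehicle 3 (26%). It was 8 without TCEP 1 (27.2%), 7 without TCEP 2 (23.1%) and 9 without TCEP 3 (27.6%). Without vehicle 2 and TCEP 1 together it was 30 of 87, against 42.2% of all tested genes. In each case the members' share was below that of all tested genes. Without this pair 14 members had an unadjusted p under 0.05 by limma, against 8.34% of all tested genes. The pair was chosen after seeing the data. It holds the 2 highest arrays of 37 members, so leaving it out removes part of the spread by which they were chosen. These counts are a description and not a test. In none of these fits did limma give a member an adjusted p under 0.05; the lowest was 0.41, without both rats.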

How the data were processed

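Cy3-labelled RNA of 6 renal cortex samples, which the series' design text calls biological replicates, was hybridised to 1-colour Agilent arrays. Images were read with Feature Extraction, version 10.7.1.1 per the file headers and 10.7 per the submitters' processing notes. The deposited processed signal is an intensity, background-subtracted and not scaled between arrays, and the deposited spot flags are other values of 0 or 1. The series matrix was deposited as a signal on a linear scale. Set against the scanner files, each of its columns was the processed signal over 1 constant, which lay within 0.15% of the 75th percentile. Its column medians were 0.104 to 0.107, and no centring was seen.

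Of 62976 spots, 1319 controls and 12 probes with outlier flags were left out. Probes were named by accession through a RefSeq gene table (GRCr8), used for names and gene order: 27460 probes (44.5%) matched 15284 genes, and 34197 stayed unnamed. A gene's brightest probe stood for it, and the gene was tested if 1 group or both had that spot well above background on every array. The groups were compared by limma 3.58.1 (R 4.3.3; two-sided, 5.93 degrees of freedom), a script checked on simulated data. Python 3.11.15 (numpy 2.4.6, pandas 2.3.3, matplotlib 3.10.9) read tables and drew figures. The number of arrays limits the precision.

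The genes, gene lists and tests were chosen with earlier results of these data known. Genes given with values were the 12 with the largest SD, up to 6 per shared set of high arrays, the 5 with the smallest p, those at the threshold, members of marker lists and neighbouring members. Others, named as examples of a kind, were chosen after their values were seen. 1 member, counted in all totals, is not reported here. Alternatives were other scalings, backgrounds, detection filters, probe rules and variance models, the series matrix values, a replicate block and leaving out each array. The normexp alternative used an offset of 50 on median spot signals, since mean spot signals were not used here.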

Additional observations from a re-analysis of the deposited data

How the results depend on the processing

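The number of genes with a within-group SD of 1 or more was 87 and moved most with the treatment of faint spots: 43 with normexp, 283 with no filter on dim probes, and 263 with detection on at least 1 array. It was 86 with quantile normalization, 93 with no scaling, and 74 to 132 when single arrays were left out (132 without vehicle 1). The 2 non-overlapping members became 1 with no scaling and 1 with detection on all 6 arrays, and 5 to 23 when single arrays were left out. Leaving out vehicle 2 and TCEP 1 together, an alternative chosen after seeing the data, gave 30 non-overlapping members and 74 genes past the SD threshold, 44 of them among the 87. When arrays were called high above the middle of a gene's range, the count with TCEP 1 alone high went from 13 to 4, all but vehicle 3 high from 12 to 6 (also 6 with normexp), vehicle 2 alone high from 6 to 3, and vehicle 2 with TCEP 1 high from 8 to 13. In all, 55 of 87 genes kept the same high arrays under that split. The causes were not tested. The count of genes past the adjusted threshold of limma was 0, and 1 without TCEP 3 (Dio2, which is not a member). The count at an unadjusted p under 0.05 was 983 and ran from 702 without vehicle 1 to 1568 with normexp. The count of members past the adjusted threshold was 0 in every alternative run. The labels do not say whether replicate numbers pair the rats, and the main fit used no pairing. Deviations of same-numbered arrays correlated at -0.146, -0.100 and 0.229, which cannot decide it with 3 arrays per group. Vehicle 2 correlated best with TCEP 1 (0.369), and vehicle 1 and vehicle 3 with TCEP 3 (0.143 and 0.229). With the replicate block, 0 genes passed limma's adjusted threshold (850 at an unadjusted p under 0.05). A slide block could not be fitted, since each slide held 1 group. What depth means here is signal over background: for the 24 members with a dim array, the lowest level is at background.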

Other observations

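Probes without a gene name held a similar share of strongly varying signals. Of 20596 unnamed probes detected on all arrays of at least 1 group, 157 (0.762%) had a within-group SD of 1 or more, up to 3.85, and 100 of the 157 showed a clear step. The commonest sets of high arrays among them were vehicle 3 alone (19 probes), all but vehicle 3 (17) and TCEP 1 alone (16). Vehicle 2 and TCEP 1 were the 2 highest arrays in 28 of the 157 probes, against 6.4% of all detected unnamed probes.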
